A study of Rattus norvegicus with 4 samples.

Results

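The genes described here are 10 solute carriers by which the proximal tubule of the kidney handles glucose, phosphate, sulfate, dicarboxylates and bicarbonate. They were chosen by name, and every array feature annotated to one of them was averaged per gene on each array. All 10 were found, with 27 of the 45220 features of the array, among 14871 named genes in all. Of the 27 features, 10 were neither dim nor saturated on any array, as judged from values that many features share exactly, and 8 of the 10 genes had at least 1 such clear feature. Slc5a1 and Slc17a1 had none.

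The samples were renal allografts of Lew rats, taken on day 4 after allogeneic kidney transplantation. The treated animals received an ApoE-mimetic peptide, which imitates apolipoprotein E, at 6 mg/kg body weight by daily intravenous injection from the day of transplantation. The comparison animals received a control peptide on the same schedule, and no untransplanted or syngeneic kidney was analysed here. The donor strain is not given in the sources used here. Each of 4 Agilent arrays held RNA of 1 ApoE-mimetic graft sample and 1 control graft sample, labelled in different dyes, with ApoE in Cy5 on replicates 1 and 3 and in Cy3 on replicates 2 and 4. The labels call the replicates biological and do not say whether animals were pooled. A graft holds tubule, vessel, stroma and infiltrating host cells, so fewer cells of a type and less RNA per cell cannot be told apart in any value below.

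Proximal tubule cells carry sodium-driven cotransporters and exchangers on their brush border, and carriers on their blood side let the reabsorbed solutes leave. The gradient of sodium across the brush border powers the uptake of glucose, phosphate and sulfate and the secretion of protons that recovers filtered bicarbonate. Ischaemia and rejection are known to reduce many of these transcripts in the kidney as tubule cells lose their differentiated state.

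All values below are log2 ratios of ApoE-mimetic over control after each array was centred on its median gene, so 0 is the ratio of the middle gene of that array. The main reading takes Cy5 as the numerator and turns replicates 2 and 4 so that ApoE stands on top. The files state neither the numerator nor the log base, which is taken as 2, and the values did not settle the direction. Replicates 1 and 3 have the same dye orientation but correlated at -0.24 across all features and at -0.66 across the 13363 clear ones. Replicates 2 and 4, which also share theirs, correlated at -0.08 and -0.04. As deposited, the other pairs ran from -0.43 (replicates 1 and 2) to 0.42 (replicates 2 and 3) across clear features. These are correlations across features that are not independent replicates. If Cy3 is the numerator, every sign below turns. If the authors had already turned their columns, replicates 2 and 4 take the other sign, and the fitted value for that reading is given beside the main one for each transporter. Replicate 4 stood apart, with an SD of 1.26 over features against 0.87 to 0.89 on the other arrays. For position, features in order of their number were taken to fill a grid of 85 columns, as no coordinates were used. In that grid the deposited ratios of replicate 4 had a median of -0.80 in the first 10 columns and of 0.40 in the last 10. The number of arrays limits the precision, and no intensities were used.

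Of the 10 genes, 3 had the widest spread over arrays, and the sequence before their transcript starts is shown for that reason. These are RefSeq sequences of the GRCr8 rat assembly, from 250 bases before to 50 bases after the start, read 5′ to 3′ on the strand of the gene. Capitals mark GTTAAT or its complement ATTAAC, a core of the motif bound by HNF1 proteins, the hepatocyte nuclear factors that drive many proximal tubule genes.
Slc34a1 promoter, chr17:9238934-9239233, minus strand: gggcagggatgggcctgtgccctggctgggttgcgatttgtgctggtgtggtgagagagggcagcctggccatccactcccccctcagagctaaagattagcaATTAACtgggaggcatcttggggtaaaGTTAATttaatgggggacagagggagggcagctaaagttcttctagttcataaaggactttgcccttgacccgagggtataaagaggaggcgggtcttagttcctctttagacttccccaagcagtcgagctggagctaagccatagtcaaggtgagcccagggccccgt
Slc26a1 promoter, chr14:1184721-1185020, plus strand: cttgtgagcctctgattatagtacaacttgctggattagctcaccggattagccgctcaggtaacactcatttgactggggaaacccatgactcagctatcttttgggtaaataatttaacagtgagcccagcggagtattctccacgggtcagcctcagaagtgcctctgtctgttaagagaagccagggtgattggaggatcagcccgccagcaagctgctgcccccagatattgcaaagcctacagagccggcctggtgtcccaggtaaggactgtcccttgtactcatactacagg
Slc9a3 promoter, chr1:30995953-30996252, minus strand: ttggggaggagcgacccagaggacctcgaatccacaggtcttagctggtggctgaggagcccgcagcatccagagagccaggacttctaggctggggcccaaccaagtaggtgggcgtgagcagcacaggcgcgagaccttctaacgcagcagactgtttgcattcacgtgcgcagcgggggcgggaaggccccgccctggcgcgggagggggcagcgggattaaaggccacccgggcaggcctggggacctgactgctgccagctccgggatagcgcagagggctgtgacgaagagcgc
The Slc34a1 window held the motif at 2 places, beginning at positions -147 and -120 relative to the start, once on each strand. It was the only window of the 10 genes with this motif, searched on both strands, which 7.45% of 33469 promoter windows of the same length held. The palindrome GTTAATNATTAAC, which contains both, was in 0 of the 10 windows and in 1 of the 33469. The nuclear receptor core AGGTCA, searched with its complement TGACCT, was in 1 of the 10 windows, that of Slc2a2, and in 16.2% of all windows. These are matches of letters only.

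No transporter gene was called different between the peptides. With limma over all 14871 genes, 0 of the 10 had an adjusted p under 0.05, on a background of 0% of all genes, and the smallest unadjusted p among them was 0.0986, for Slc13a3. At an unadjusted p under 0.05 there were 0 of the 10 genes and 3.39% of all genes. With columns taken as already turned, 0 of the 10 and 0% of all genes passed again, and 1 of the 10, Slc2a2, had an unadjusted p under 0.05, against 3.08% of all genes. The median fitted ratio of the 10 was -0.11, against -0.02 over all genes. With columns already turned it was 0.25, against -0.02. Without replicate 4, the array that stood apart, 0 of the 10 passed, the median fitted ratio was -0.46, and the 10 ratios ran from -1.06 for Slc34a1 to 0.97 for Slc5a2. With 4 arrays an exact sign-flip test of a single gene cannot give a p under 0.125.

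**Figure D1:**
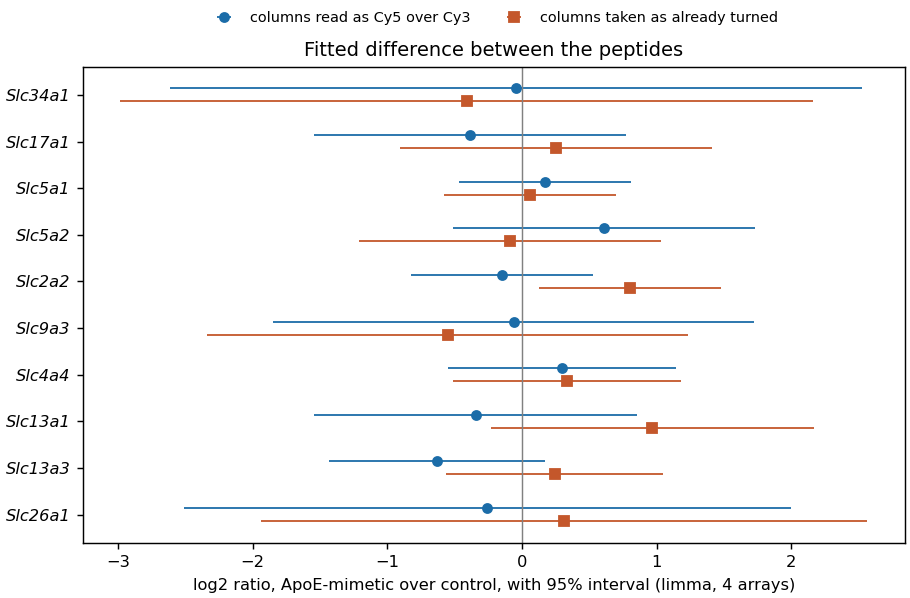
Fitted log2 ratio of ApoE-mimetic over control for each transporter gene (x axis, log2 units, limma over 4 arrays) with its 95% interval; circles read the columns as Cy5 over Cy3 and squares take them as already turned. All intervals hold 0 except that of Slc2a2 with columns already turned, which runs from 0.12 to 1.48 and whose adjusted p was 0.9997.

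Single arrays, by contrast, held large ratios for several of these genes. On replicate 1, 4 of the 10 lay at or below -1 and 2 at or above 1, where 8.34% and 7.87% of all genes did. On replicate 2 these counts were 5 and 1, against 9.86% and 7.18% of genes. Replicate 3 had 0 at or below -1 and 4 at or above 1, against 7.82% and 7.81%. Replicate 4, the array with the wide spread, had 0 and 2, against 19.4% and 17.4%. The median of the 10 genes was -0.64, -1.03, 0.75 and -0.01 on replicates 1 to 4, so the control sample was on the higher side on replicates 1 and 2 and the ApoE sample on replicate 3.

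**Figure D2:**
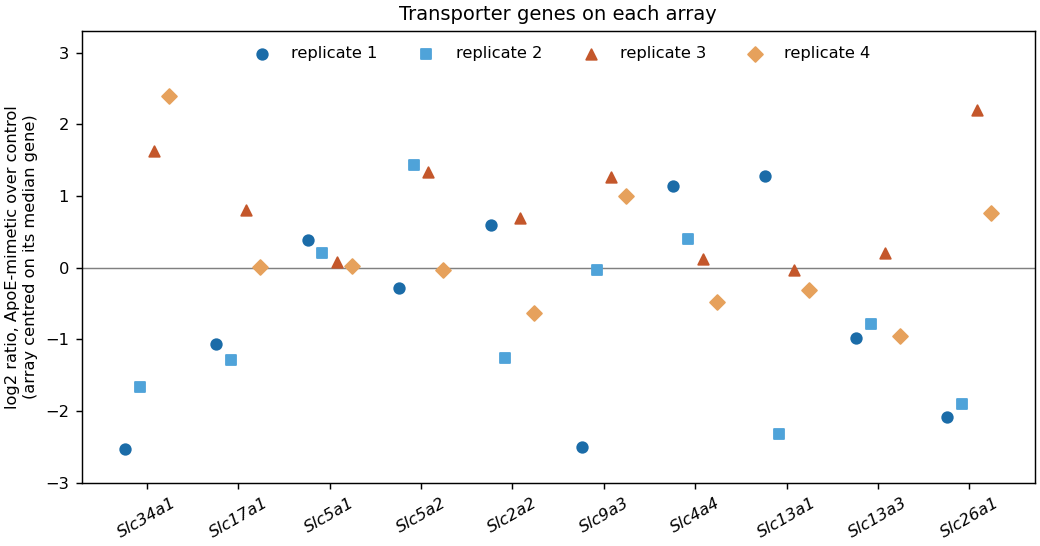
Log2 ratio of ApoE-mimetic over control (y axis) for each of the 10 transporter genes (x axis) on each of the 4 arrays, with each array centred on its median gene. Slc34a1, Slc26a1 and Slc9a3 spread over 4.94, 4.29 and 3.77 log2 units, and Slc5a1 over 0.36.

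Among the phosphate carriers, Slc34a1 encodes the main sodium-phosphate cotransporter of the brush border, which parathyroid hormone withdraws from the membrane. Its ratios were -2.54, -1.67, 1.63 and 2.40 on replicates 1 to 4. The control sample was higher on replicates 1 and 2 and the ApoE sample on replicates 3 and 4, and the pairs thus pointed both ways with similar sizes. The fitted ratio was -0.04 (SE 0.98, n = 4, 95% interval -2.62 to 2.53), and -0.41 with columns already turned. Its SD over arrays, 2.42, was larger than that of 99.1% of genes. Its clear feature gave -3.73, -1.62, 3.25 and 3.35, and its dim feature -1.34, -1.71, 0.00080 and 1.46. The features shared their sides, and the dim one lay nearer to 0 on replicates 1, 3 and 4.

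Slc17a1 encodes a sodium-phosphate cotransporter of the apical membrane that also carries organic anions such as urate. Its 1 feature, dim on 1 array, gave -1.07, -1.29, 0.80 and 0.01. As for Slc34a1, replicates 1 and 2 were on the control side and replicate 3 on the ApoE side, while replicate 4 was near the median gene. The fitted ratio was -0.39 (SE 0.44, n = 4, interval -1.54 to 0.77), and 0.25 with columns already turned.

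The glucose carriers did not share one profile. Slc5a2 encodes the high-capacity sodium-glucose cotransporter of the early proximal tubule, the target of the gliflozin drugs. Its ratios were -0.29, 1.43, 1.33 and -0.04. The ApoE sample was higher on replicates 2 and 3, and replicates 1 and 4 were close to the median gene. Its features, 2 and both clear, gave 1.25 and 1.60 on replicate 2 and 1.29 and 1.37 on replicate 3, so they differed by less than the arrays did. For the peptides the fit gave 0.61 (SE 0.43, n = 4, interval -0.51 to 1.73), and -0.09 with columns already turned.

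Slc5a1 encodes the cotransporter of the late proximal tubule that takes up the glucose left over. It gave 0.38, 0.21, 0.08 and 0.02, the only gene of the 10 that was positive on all 4 arrays, as 4.92% of all genes were. None of the 10 was negative on all 4, as 5.13% of all genes were. Its single feature was dim on 3 of 4 arrays. Its SD over arrays, 0.16, was larger than that of 3.41% of genes. Limma gave 0.17 (SE 0.24, n = 4, interval -0.47 to 0.81), and 0.06 with columns already turned. Before centring, replicate 3 gave -0.03, so the shared sign rests on the centring.

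Slc2a2 encodes the facilitative glucose transporter through which glucose leaves the cell on the blood side. Its ratios were 0.60, -1.27, 0.70 and -0.64, with the ApoE sample higher where it carried Cy5 and the control sample higher where the control carried Cy5. Its fitted ratio was -0.15 (SE 0.26, n = 4, interval -0.83 to 0.52). With columns taken as already turned, Slc2a2 was on the ApoE side on all 4 arrays, the only one of the 10 genes with 1 sign on all arrays in that reading, as 11.4% of all genes were. There its fitted ratio was 0.80 (SE 0.26, n = 4, interval 0.12 to 1.48), with a limma p of 0.0292 that became 0.9997 after adjustment over all genes. A dye effect on this probe and a difference between the peptides in columns already turned cannot be told apart. The features, 1 clear and 1 dim on all 4 arrays, gave 0.59 and 0.61 on replicate 1, -1.07 and -1.47 on replicate 2, 0.70 and 0.70 on replicate 3, and -0.60 and -0.67 on replicate 4.

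Of the acid-base carriers, Slc9a3 encodes the sodium-proton exchanger of the brush border, which recovers most of the filtered bicarbonate. Its ratios, averaged over 10 features, were -2.50, -0.03, 1.27 and 1.00. Replicate 1 was far on the control side, replicate 2 lay at the median gene and replicates 3 and 4 were on the ApoE side. The fitted ratio was -0.06 (SE 0.68, n = 4, interval -1.85 to 1.72), and -0.55 with columns already turned. Its SD over arrays, 1.72, was larger than that of 95.4% of genes.

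The 10 features of Slc9a3 bear the same accession and show the spread within an array. On replicate 1 all 10 were on the control side, from -3.59 to -0.83. On replicate 2 they ran from -2.24 to 2.05 with a median of -0.21, and 3 were positive, so the mean near 0 there averages features on opposite sides. On replicates 3 and 4 all 10 were positive, from 0.21 to 2.66 and from 0.14 to 3.54. On replicate 4, 2 features lay at 3.53 and 3.54 and the rest at or below 0.67. The feature SD was 0.74, 1.29, 1.00 and 1.34 on the 4 arrays, and 9 of the 10 features were dim on at least 1 array. The 1 clear feature gave -3.09, 1.85, 2.32 and 0.67, with replicate 2 on the ApoE side.

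**Figure D3:**
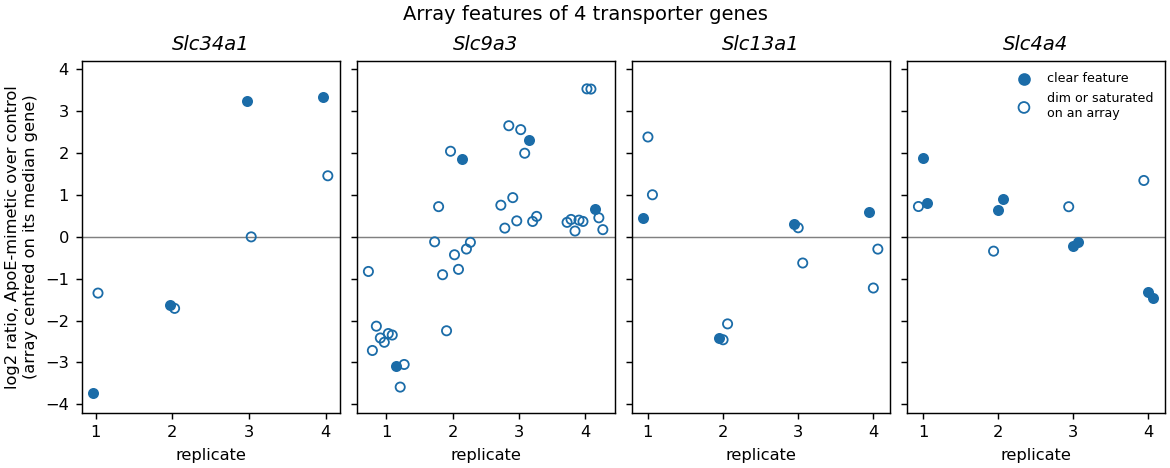
Log2 ratio of ApoE-mimetic over control (y axis) of every feature of Slc34a1, Slc9a3, Slc13a1 and Slc4a4 on replicates 1 to 4 (x axis), filled where the feature was clear on all arrays and open where it was dim or saturated on at least 1. The Slc9a3 features span both sides on replicate 2, from -2.24 to 2.05, and lie on 1 side on the other arrays.

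Slc4a4 encodes the sodium-bicarbonate cotransporter of the blood side, which completes bicarbonate recovery. Its ratios were 1.14, 0.40, 0.12 and -0.48, so replicate 1 was on the ApoE side, where Slc9a3 was on the control side. Fitted over the arrays, it was 0.30 (SE 0.32, n = 4, interval -0.55 to 1.14), and 0.33 with columns already turned. Its clear features gave 1.88 and 0.82 on replicate 1, 0.63 and 0.92 on replicate 2, -0.23 and -0.12 on replicate 3, and -1.32 and -1.45 on replicate 4. Its dim feature gave 0.73, -0.34, 0.72 and 1.35. Dim and clear features thus lay on opposite sides on replicates 2 to 4.

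The sulfate and dicarboxylate carriers were measured by 6 features. Slc26a1 encodes the anion exchanger that moves sulfate out across the blood side, and its 1 feature was clear. It gave -2.09, -1.90, 2.20 and 0.76. The sides were those of Slc34a1 on every array, and the SD over arrays, 2.09, was larger than that of 98.1% of genes. The fit gave -0.26 (SE 0.86, n = 4, interval -2.51 to 2.00), and 0.31 with columns already turned.

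Slc13a1 encodes the sodium-sulfate cotransporter of the brush border, the entry step for which Slc26a1 is an exit. It gave 1.28, -2.32, -0.03 and -0.31. Replicate 1 was on the ApoE side, opposite to Slc26a1, and replicate 2 was the lowest value of the 10 genes on that array. All 3 of its features were between -2.46 and -2.08 on replicate 2, while on replicate 4 they ran from -1.22 to 0.59. Its fitted ratio was -0.34 (SE 0.46, n = 4, interval -1.55 to 0.86), and 0.97 (interval -0.23 to 2.17) with columns already turned.

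Slc13a3 encodes a sodium-dicarboxylate cotransporter of the blood side that takes up succinate and related acids. Its ratios were -0.99, -0.79, 0.21 and -0.95, with replicates 1, 2 and 4 on the control side. The fitted ratio was -0.63 (SE 0.31, n = 4, interval -1.44 to 0.17), the largest in size among the 10 and larger than that of 88.4% of genes, with a limma adjusted p of 0.9999. With columns already turned it was 0.24. Its clear feature gave -0.94, -0.74, 0.92 and -0.06, and its dim feature -1.03, -0.84, -0.50 and -1.85, so the replicate 4 value rests on the dim one. With clear features only, the fitted ratio was -0.18.

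Arrays of the same dye orientation differed widely from each other for several of these genes. Such differences hold no dye effect common to both arrays, and their sizes are the same for each reading of the columns. Replicate 1 minus replicate 3 had a median size of 1.47 over the 10 genes, against 0.64 over all genes, and replicate 2 minus replicate 4 had 1.17, against 0.77. For 8 of the 10 genes the fitted peptide ratio was smaller in size than both differences, the exceptions being Slc2a2 and Slc13a3, as it was for 67.3% of all genes. A fitted ratio averages 4 arrays and a difference takes 2, so the share near the background is no result about the transporters. Slc34a1 differed by -4.17 and -4.07, Slc26a1 by -4.29 and -2.66, Slc9a3 by -3.77 and -1.03, and Slc17a1 by -1.87 and -1.31. With Slc2a2, at -0.10 and -0.63, these 5 genes were lower in ApoE over control on replicate 1 than on 3 and on replicate 2 than on 4, as 26.8% of all genes were. If the columns were already turned, 2 of the 10, Slc5a2 and Slc13a3, were lower in both pairs, as 22.6% of all genes were. In the main reading Slc4a4 and Slc5a1 went the other way in both pairs, and Slc5a2, Slc13a1 and Slc13a3 had opposite signs in the pairs.

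**Figure D4:**
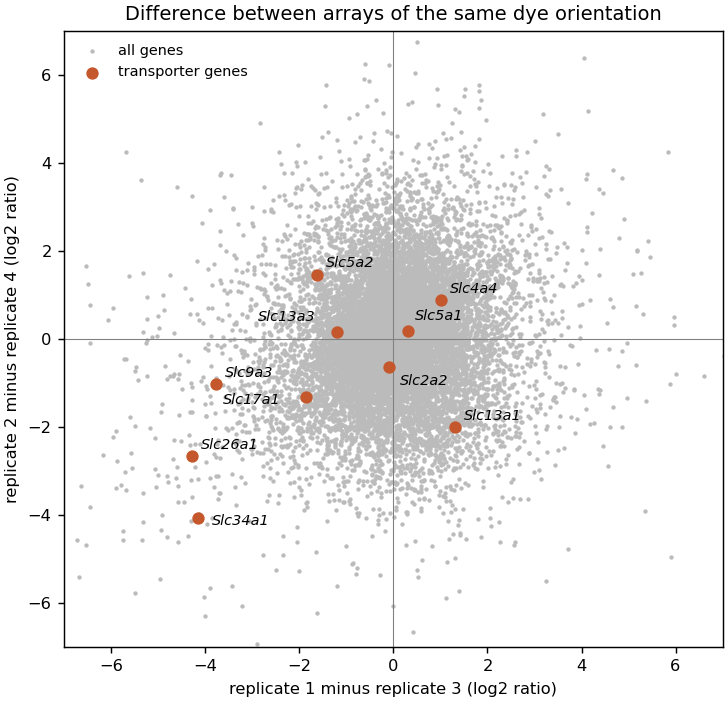
Difference in log2 ratio between replicates 1 and 3 (x axis) and between replicates 2 and 4 (y axis), for the 10 transporter genes in colour and all genes in grey; 31 genes lie beyond the axes, which end at 7 log2 units. Slc34a1, at -4.17 and -4.07, and Slc26a1, at -4.29 and -2.66, lie to the lower left within the cloud.

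Other markers of the proximal tubule were set beside the transporters to see whether these follow the cell type. Levels cannot be compared from ratios, so the presence of the tubule itself was not checked by level. The 12 markers, among them the endocytic receptors Lrp2 and Cubn, the water channel Aqp1 and the organic anion transporter Slc22a6, had medians of -1.66, -1.86, 1.08 and 0.72 on replicates 1 to 4. All 12 were on the control side on replicates 1 and 2, and 11 and 8 were on the ApoE side on replicates 3 and 4. Of the 10 transporters, 6, 7, 9 and 5 lay on the side of the marker median. The transporters off that side on replicate 1 were Slc4a4, Slc13a1, Slc2a2 and Slc5a1, each above the highest marker, which was at -0.05. On replicate 2 they were Slc5a2, Slc4a4 and Slc5a1. Slc22a6 itself had -4.18, -3.02, 1.81 and 5.15, a wider range than any of the 10.

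Markers of other cells moved with these arrays too. The 8 T cell markers had medians of 0.66, 1.60, -1.29 and 1.51, and all 8 lay on the ApoE side on replicates 1, 2 and 4 and on the control side on replicate 3. They were thus opposite to the transporter median on replicates 1 to 3. Of 8 monocyte and macrophage markers, Lyz2 sat at the value taken as saturation on 3 arrays and was left out. The other 7 had medians of 0.65, 0.59, -1.34 and -0.20, and 7, 7, 0 and 2 of them were positive. The 6 collecting duct markers, from another tubule segment, had -1.32, -0.59, 1.28 and 0.73, and thus lay on the proximal tubule side on all 4 arrays. Podocytes (4 genes measured) had -0.48, -0.54, 0.47 and 1.52, and endothelium (5) -0.68, -0.34, 0.08 and 1.20. These medians also lay on the proximal tubule side on all 4 arrays, so that side was not particular to tubule cells. The thick ascending limb (3) had -1.15, 0.71, 0.92 and 0.83, off that side on replicate 2. The distal convoluted tubule (3) had 0.01, 0.32, 1.41 and 0.09, off it on replicates 1 and 2. Of the 6 tubule injury genes, Spp1 likewise sat at that value on 3 arrays, and the 5 others had 0.0021, -0.51, 0.25 and -1.61. In the 9 lists 0 markers passed the limma test over all genes in either reading. In the main reading 1, the T cell gene Trat1, had an unadjusted limma p under 0.05, against 3.39% of all genes. Trat1 had no clear feature. If columns were already turned, 2 injury genes, Havcr1 and Clu, and 1 T cell gene, Cd2, had such a p, against 3.08% of all genes. The part of cell makeup in the transporter values was not tested.

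**Figure D5:**
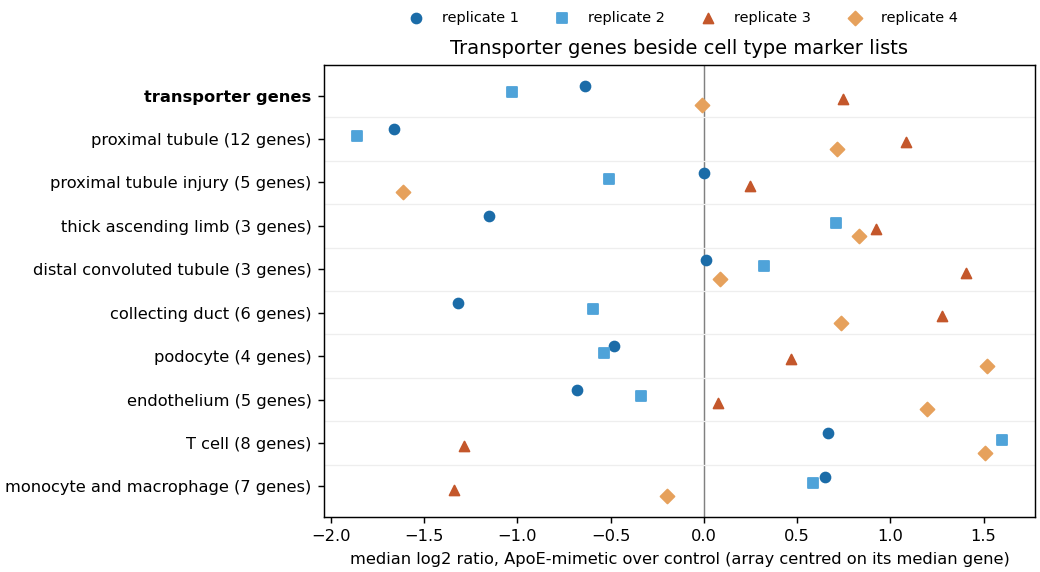
Median log2 ratio of ApoE-mimetic over control (x axis, log2 units, array centred on its median gene) on each of the 4 arrays, for the 10 transporter genes and 9 lists of cell type markers, without Lyz2 and Spp1. The transporter medians, from -1.03 on replicate 2 to 0.75 on replicate 3, lie on the side of the proximal tubule markers on replicates 1 to 3 and opposite to the T cell markers there.

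The wider pathways gave no call in either direction, in either reading; the second of each pair of values below is that with columns already turned. Among 13 further phosphate transport genes, 0 passed higher and 0 lower, with Slc20a2, a sodium-phosphate cotransporter of most cells, at -0.65 (SE 0.26, n = 4) and 0.42, the phosphate exporter gene Xpr1 at 0.48 and -0.10, and Slc34a2 at -0.37 and 0.66. Among 11 genes of sugar transport 0 passed, with Slc5a11 at -0.49 and 0.012, Slc5a4 at -0.60 and 0.57, and the lactate carrier gene Slc5a12 at 0.57 and -0.24. Among 18 acid-base genes 0 passed, with the carbonic anhydrase gene Car12 at -0.43 and 1.61, the chloride-bicarbonate exchanger gene Slc26a4 at 0.42 and -0.23, and the sodium-bicarbonate cotransporter gene Slc4a7 at -0.28 and -0.29. In the main reading each list had 0 genes at an unadjusted limma p under 0.05, against 3.39% of all genes. With columns already turned the phosphate list had 2 of 13, Slc34a2 and Slc17a2, and the sugar list 0. The acid-base list had 2 of 18 there, Slc26a7 and Car12, and the share over all genes was 3.08%. The medians of the phosphate, sugar and acid-base lists were -0.12, -0.10 and -0.08, against -0.02 over all genes, and with columns already turned -0.0013, -0.085 and 0.082, against -0.02.

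Of 6 sulfate and dicarboxylate genes 0 passed in either direction, with 0 at an unadjusted p under 0.05 in either reading, and the median was -0.16, or -0.061 with columns already turned. Slc13a2, the citrate and dicarboxylate cotransporter gene of the brush border and a relative of Slc13a1 and Slc13a3, had -2.09, -3.17, 0.60 and 0.51 on the 4 arrays. These sides were those of Slc34a1 and Slc26a1, and the fitted ratio was -1.03 (SE 0.78, n = 4), or 0.29 with columns already turned. Papss2, which makes the activated sulfate donor, was at -0.40 and -0.30, and the mitochondrial carrier gene Slc25a10 at -0.19 and -0.099. Of 8 proximal tubule transcription factor genes 0 passed. The smallest unadjusted p, 0.0487, was that of Nr1h4, the bile acid receptor gene, at -0.81 (SE 0.31, n = 4, limma adjusted p of 0.9999), with Hnf4g at -0.80 and Ppara at -0.21. In the other reading these were 1.13, 1.36 and 0.21. There 3 of the 8, Hnf4g, Nr1h4 and Foxa3, had an unadjusted limma p under 0.05, against 3.08% of all genes. The list had a median of -0.18, or 0.65 with columns already turned, and only 2 of its 8 genes had a clear feature.

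The 8 genes nearest to the median profile of the transporters over the 4 arrays, by Euclidean distance among 6717 genes with a clear feature, were Glyctk, Aldh9a1, Decr1, Cldn7, Ugt1a2, Bmyc, Hsd17b4 and Ndufa11. Glyctk, which encodes glycerate kinase, was nearest at a distance of 0.11, with -0.57, -0.96, 0.75 and -0.06. Decr1 and Hsd17b4, enzymes of mitochondrial and peroxisomal fatty acid oxidation, lay at 0.28 and 0.30. The likeness is over 4 arrays only and is a description.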

How the data were processed

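Per the labels, total RNA of renal allografts was labelled with an Agilent 2-colour kit and hybridised in a balanced dye swap. The authors deposited 1 ratio per feature and array, taken here as log2 of the 2 channels. Neither the labels nor the table states the log base, the numerator, the scanner or how the ratios were normalized. The largest absolute value was 11.3.

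Symbols came from the array annotation (25353 of 45220 features with 1 symbol, 48 with several, 19819 with none), and 25306 were matched by gene number to RefSeq genes of GRCr8, which updated 1 symbol. A feature was called clear unless, on some array, more than 2 features held exactly its value, it was missing, or it sat at the commonly shared value next to 0. Features were averaged per gene, each array was centred on its median gene (-0.22, -0.04, -0.11 and -0.55 before centring), and limma 3.58.1 in R 4.3.3 was fitted over all genes with a treatment and a dye coefficient (lmFit, eBayes, two-sided, Benjamini-Hochberg over all genes, threshold 0.05). For columns already turned, the roles of the coefficients are exchanged. SEs rest on differences between arrays of the same orientation and are drawn by eBayes towards a variance shared over all genes. The fit was tested on simulated data.

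The members and lists were chosen with earlier results of these data known. Named genes are the 10 members, up to 3 genes per pathway list with the smallest unadjusted p, and the 8 genes of nearest profile; Lrp2, Cubn, Aqp1 and Slc22a6 stand as examples of their marker list. These and the list genes named for a count or a shared value (Trat1, Cd2, Havcr1, Clu, Slc17a2, Slc26a7, Foxa3, Lyz2, Spp1) were chosen after their values were seen. Alternatives were the dye term, direction, centring, scaling, clear features only, the median over features, robust eBayes, each replicate left out with and without the dye term, and, chosen after seeing the data, subtraction of the median of each of 85 grid columns.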

Additional observations from a re-analysis of the deposited data

Results flagged for a closer look

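Slc13a3 on replicate 3 had a ratio of 0.21, apart from its values of -0.99, -0.79 and -0.95 on replicates 1, 2 and 4. The gap to the nearest of the others was 0.84 of the range, above Dixon's 95% critical value for 4 samples. With columns already turned the gap was 0.61 of the range, and for the clear feature alone 0.52, so neither would stand apart. Chance flags about 1 in 20 groups, and 10 genes were examined.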

How the results depend on the processing

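No setting gave a call. The count of genes with a limma adjusted p under 0.05 was 0, for all genes and for the 10 transporters, in the main analysis and under all alternatives, and the unadjusted count was 504 of 14871 genes in the main analysis, 1183 without replicate 2, and 95 of 6731 with clear features only. Of 158 refitted transporter ratios, 129 kept their direction and 29 turned, and the lowest adjusted p was 0.629. Among those kept are 10 without the dye term on all 4 arrays and 10 with robust eBayes. These settings leave the fitted ratio itself unchanged, so no direction could turn in them. With columns already turned, Slc17a1 had 0.25, Slc5a2 -0.087, Slc2a2 0.80, Slc13a1 0.97, Slc13a3 0.24 and Slc26a1 0.31. Without centring, Slc34a1 had 0.024 and Slc9a3 0.0041. With clear features only, they had 0.33 and 0.46. Slc4a4 had -0.0032 with the median over features, and Slc26a1 0.023 with grid column medians subtracted. With 1 replicate left out, Slc34a1 ranged from -1.08 to 1.00, Slc17a1 from -0.85 to 0.080, Slc9a3 from -1.005 to 0.88, Slc26a1 from -1.33 to 0.82, Slc2a2 from -0.31 to 0.0063 and Slc13a1 from -0.85 to 0.16. With the dye term left out as well, Slc34a1 ranged from -0.86 to 0.79, Slc9a3 from -0.51 to 0.75, Slc26a1 from -1.08 to 0.36, Slc2a2 from -0.44 to 0.22 and Slc13a1 from -0.89 to 0.31; without replicate 2 alone Slc34a1 had 0.497 and Slc26a1 0.291 there, and Slc2a2 had 0.0094 without replicate 4. Over all fits with 1 replicate left out, the median of the transporters ranged from -0.52 to 0.24. The cause of these turns was not tested. Slc5a1, Slc4a4, Slc5a2 and Slc13a3 kept their direction whichever replicate was left out, with or without the dye term, but shrank to as little as 0.094, 0.017, 0.20 and -0.33. Slc13a3 had -0.18 with clear features only. Each array sets both peptides against each other, so every fit is already paired.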

Other observations

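Havcr1, Car12, Hnf4g and Nr1h4 shared with Slc2a2 a single sign on all 4 arrays, with columns centred but not turned, as 11.4% of all genes had. This is a positive ratio in each column if the columns had already been turned. Of the other injury genes, Clu and Spp1 did so too, but their shared sign rests on the centring. Clu had 0.0021 on replicate 1, where centring had subtracted a median of -0.22. Spp1, left out above as saturated, sat on 3 arrays at the shared value next to 0, so its sign there came from the median subtracted. Krt20, Lcn2 and Vcam1 had both signs, and so had Ppara of the transcription factors. Havcr1, Car12, Hnf4g and Nr1h4 were chosen after their values were seen. Havcr1, which encodes a kidney injury molecule of the proximal tubule, had fitted ratios of 1.71 for columns already turned and -0.66 for columns read as Cy5 over Cy3. Car12 had 1.61 and -0.43, Hnf4g 1.36 and -0.80, and Nr1h4, the bile acid receptor gene, 1.13 and -0.81. The limma p for columns already turned was 0.00212 for Havcr1 and 0.00527 for Car12, and both became 0.9997 after adjustment over all genes. The single features of Car12, Hnf4g and Nr1h4 were each not clear, and that of Havcr1 was clear. A dye effect and a difference between the peptides cannot be told apart for these genes.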
